A study of Mus musculus with 6 samples.

Results

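The levels of 10 genes linked to hepatic stellate cells and their fetal precursors were compared in whole fetal livers of Rb null and wild type mouse embryos. The genes are the contractile markers Des, Acta2 and Tagln, the secreted factors Mdk, Ptn, Cxcl12 and Hgf, the receptor genes Pdgfra and Pdgfrb, and the cadherin gene Cdh11. They were chosen by name, with earlier results of these data known. Every probe set that the platform annotation assigns to a single one of these symbols was taken. This gave 14 of the 12422 probe sets that are not array controls, for 10 of the 8251 genes with a probe set of their own. The livers came from 3 Rb null and 3 wild type embryos, all untreated, at embryonic day 12.5, from matings between 129sv mice heterozygous for Rb. The gene is lost in the whole embryo, so every cell type of the liver carries the loss. Each liver was dissected and disaggregated in saline, and its RNA was hybridised to 1 Affymetrix array. The values are MAS5 signals, an intensity on a linear scale, and n = 3 embryos per genotype throughout.

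Stellate cells of the fetal liver arise from mesenchyme and mesothelium and lie between hepatoblasts and the sinusoidal endothelium. They are known as sources of growth factors and chemokines for hepatoblasts and for blood-forming cells, and after injury they take on a contractile state with smooth muscle actin. PDGF receptors, which bind platelet-derived growth factors, drive the growth and movement of these cells. Retinoblastoma protein restrains E2F transcription factors.

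The promoters of a contractile marker and of a secreted factor are shown because the results set these classes of genes side by side. RefSeq promoters of the mouse build GRCm38.p6, each 250 bases before to 50 bases after a start site, were at hand for 6 of the 10 genes. Both strands were searched for the CArG box, the site of serum response factor in contractile genes. TATAAA was searched as the core promoter box and GGGCGG as the GC box. The E2F cores were TTCCCGC in its first form, and in its second form TTGGCGC. A looser CArG box, in which 1 of the 6 inner letters may be other than A or T, was added after the sequences were seen. Capitals mark every match, and overlapping matches run together. The Acta2 promoter lies at chr19:34255324-34255623 on the minus strand and the Cxcl12 promoter at chr6:117168285-117168584 on the plus strand.
Acta2: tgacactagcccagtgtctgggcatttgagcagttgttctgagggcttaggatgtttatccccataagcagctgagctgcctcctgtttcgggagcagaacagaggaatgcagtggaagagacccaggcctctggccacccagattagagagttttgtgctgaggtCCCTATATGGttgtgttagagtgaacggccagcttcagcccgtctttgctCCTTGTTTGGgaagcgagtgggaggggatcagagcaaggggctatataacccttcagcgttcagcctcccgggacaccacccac
Cxcl12: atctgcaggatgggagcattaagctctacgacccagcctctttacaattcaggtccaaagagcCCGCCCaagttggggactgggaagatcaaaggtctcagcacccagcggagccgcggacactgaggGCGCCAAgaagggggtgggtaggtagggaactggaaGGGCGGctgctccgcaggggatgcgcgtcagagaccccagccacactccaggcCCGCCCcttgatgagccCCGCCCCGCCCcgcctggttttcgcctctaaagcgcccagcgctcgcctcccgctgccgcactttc

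The Acta2 window held 2 matches to the looser CArG box, starting at positions -84 and -34 from the start site, and no match to the strict one. The looser box stood in 9.98% and the strict box in 1.63% of 32851 promoters. The Cxcl12 window held 5 GGGCGG matches, a motif of 35.7% of promoters, and 1 match to TTGGCGC at position -122, a core found in 2.45%. TATAAA, found in 13.6% of promoters, and TTCCCGC, found in 4.60%, had no match in either window. Des held 2 GGGCGG matches, and the windows of Pdgfra, Ptn and Hgf held none of the motifs. These matches describe letters only.

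Rb1 itself read 127 to 142 in Rb null livers, against 706 to 791 in wild type livers on its brightest probe set, and whether its probes lie in the deleted part is not stated in the labels. The 2% trimmed mean was 500.2 on every array, while the median signal was 197 to 203 in Rb null arrays, against 176 to 186 in wild type arrays. The Gapdh 3 prime over 5 prime ratio of the array controls was 0.829 to 0.888 in Rb null arrays, against 0.915 to 0.924 in wild type arrays, and the Actb ratio was 1.19 to 1.31 against 1.12 to 1.21. Each change given is a difference of mean log2(signal + 50.02) values, Rb null less wild type, with its SE, and the added 50.02 makes changes of dim probe sets look smaller. The test was limma with Benjamini-Hochberg adjustment over the 6793 probe sets whose mean over all arrays was above a signal filter of 150.1, and a gene is said to rise or fall only at an adjusted p under 0.05.

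Of the 14 probe sets, 7 passed the filter, and they stood for Acta2, Tagln, Pdgfra, Cxcl12 and Mdk. Of these 7, 3 rose, none fell and 4 did not pass the test, where 12.8% of all tested probe sets rose and 9.08% fell, 21.8% in either direction. The probe sets that rose were those of Mdk and 2 of Cxcl12. The median change was 0.39 over the 7 probe sets and 0.02 over all tested. Taking the brightest probe set of each gene, 2 of 5 genes rose (Mdk and Cxcl12), and none fell, against 13.1% of all tested genes that rose and 9.5% that fell. Des, Hgf, Pdgfrb, Ptn and Cdh11 stayed below the filter on all their probe sets, and no detection call was at hand for them. The stellate cell label therefore rests on 5 genes above the filter, and the defining markers Des and Hgf are not among them. More cells of a type and more RNA per cell cannot be told apart in whole livers.

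**Figure D1:**
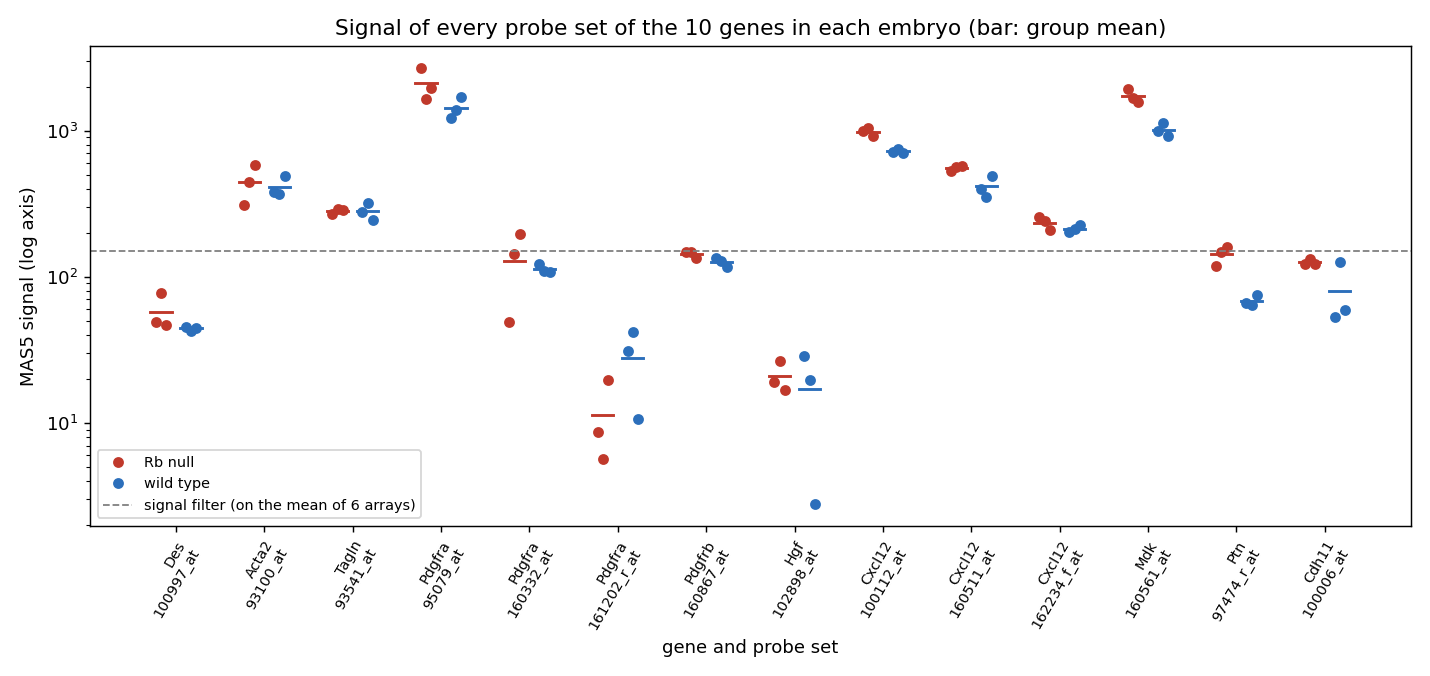
MAS5 signal (log axis) of all 14 probe sets of the 10 genes in each embryo, Rb null (red) left of wild type (blue). Bars are group means and the dashed line is the signal filter of 150.1. Mdk and 2 Cxcl12 probe sets are separated by genotype above the filter, while Acta2 and Tagln overlap.

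The contractile markers showed no detectable difference between the genotypes. Acta2, smooth muscle actin of vessel walls and activated stellate cells, read 309, 444 and 578 in Rb null embryos 1, 2 and 3, against 383, 367 and 486 in wild type embryos 1, 2 and 3. The Rb null embryos hold both the lowest and the highest value, so the groups overlap fully. Acta2 averaged 443 ± 134 in Rb null livers, against 412 ± 64.4 in wild type livers (SD), a change of 0.07 ± 0.19 with a 95% interval from -0.38 to 0.51 (limma adjusted p = 0.84). An increase of the size seen for Mdk lies outside that interval, whereas one of the size seen for Cxcl12 lies within it. The sign of the Acta2 change turned with the scaling, to -0.06 after median scaling, and with the embryo left out, from -0.12 without Rb null embryo 3 to 0.28 without Rb null embryo 1.

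Tagln, which encodes the actin-binding protein transgelin (SM22), read 268, 290 and 286 in Rb null embryos, against 278, 322 and 246 in wild type embryos. All Rb null values lay within the wild type range. The means were 281 ± 11.7 in Rb null livers, against 282 ± 38.3 in wild type livers, a change of 0.00 ± 0.11 with a 95% interval from -0.25 to 0.25 (limma adjusted p = 0.99), and the sign again turned, to -0.12 after median scaling. Des, the intermediate filament desmin of muscle and stellate cells, read 49.1, 77.7 and 46.8 in Rb null embryos, against 45.7, 42.5 and 44.7 in wild type embryos. All Rb null values lay just above all wild type values, as they did for 12% of the probe sets below the filter, while all lay below for 4.09%, and in a fit of all 12422 probe sets without the filter the Des change was 0.18 ± 0.14 (limma adjusted p = 0.49).

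Midkine, the product of Mdk, is a heparin-binding growth factor of embryonic epithelium and mesenchyme, and it had the largest change of the tested probe sets of the 10 genes. Mdk read 1929, 1683 and 1570.1 in Rb null embryos, against 989, 1121 and 915 in wild type embryos. Every Rb null value lay above every wild type value, a pattern that 22.9% of all tested probe sets shared, while 17.2% showed the opposite one. The mean was 1728 ± 184 in Rb null livers, against 1008 ± 104 in wild type livers, a rise of 0.75 ± 0.10, or 1.68-fold, with a 95% interval from 0.53 to 0.97 (limma adjusted p = 0.0017). Whole livers do not show which cells made it.

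Ptn encodes pleiotrophin, the close relative of midkine, and was dim. Its single probe set read 119, 149 and 159 in Rb null embryos, against 65.7, 63.9 and 75.2 in wild type embryos. The groups do not overlap, and the Rb null values are the ones closer to the filter. The means were 142 ± 20.9 in Rb null livers, against 68.3 ± 6.07 in wild type livers. Without the filter the change was 0.70 ± 0.14 and passed the test (limma adjusted p = 0.023), in a fit in which 5.88% of all probe sets rose and 3.39% fell. The probe set carries the suffix r, which marks a reduced set of rules in probe selection.

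Cxcl12 encodes the chemokine that keeps blood stem and progenitor cells in their niche, and it rose on 2 of its 3 probe sets. The brightest, 100112_at, read 993, 1035 and 917 in Rb null embryos, against 711, 752 and 705 in wild type embryos. Every Rb null value lay above every wild type value. The mean was 981 ± 59.8 in Rb null livers, against 723 ± 25.9 in wild type livers, a rise of 0.42 ± 0.07, or 1.33-fold, with a 95% interval from 0.26 to 0.57 (limma adjusted p = 0.0051). A second probe set, 160511_at, read 530, 564 and 573 in Rb null embryos, against 402, 352 and 493 in wild type embryos. The groups again did not overlap, although wild type embryo 3 came close to the Rb null values. This rise of 0.39 ± 0.11 (limma adjusted p = 0.043) held without wild type embryo 3 (adjusted p = 0.016) but not without any other single embryo (adjusted p from 0.085 to 0.12). Nor did it pass with median scaling (adjusted p = 0.16), quantile normalization (adjusted p = 0.10) or cyclic loess normalization (adjusted p = 0.095), with no filter (adjusted p = 0.080) or without the intensity trend (adjusted p = 0.053).

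The third Cxcl12 probe set, 162234_f_at, did not separate the genotypes. It read 255, 240 and 209 in Rb null embryos, against 201, 211 and 227 in wild type embryos, a change of 0.11 ± 0.11 with a 95% interval from -0.13 to 0.35 (limma adjusted p = 0.51). The suffix f marks probes that can bind a family of transcripts. The probe sets of Cxcl12 thus disagree on the size of the change.

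Hgf encodes hepatocyte growth factor, a mitogen of hepatoblasts made by stellate cells. It was dim, with 19.1, 26.5 and 16.8 in Rb null embryos, against 28.5, 19.6 and 2.8 in wild type embryos. The values overlap, and 12.6% of all probe sets were dimmer, so a difference in Hgf was not detectable on this array.

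**Figure D2:**
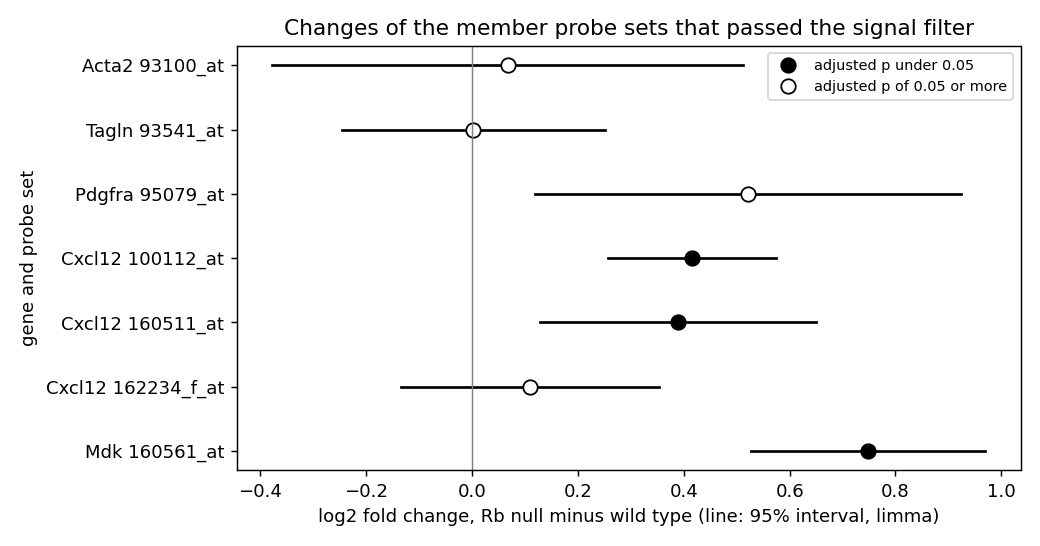
Change on the log2 scale (Rb null over wild type) of the 7 probe sets that passed the signal filter, with 95% intervals from limma. Filled points had an adjusted p under 0.05. The interval of Mdk runs from 0.53 to 0.97, and the interval of Tagln from -0.25 to 0.25.

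Pdgfra, the alpha receptor for platelet-derived growth factors and a broad marker of fetal mesenchyme, had 1 bright and 2 dim probe sets. The bright one, 95079_at, read 2694, 1655 and 1967 in Rb null embryos, against 1226, 1375 and 1708 in wild type embryos. The groups overlap through Rb null embryo 2, which lay below wild type embryo 3. The means were 2106 ± 533 in Rb null livers, against 1436 ± 247 in wild type livers, a change of 0.52 ± 0.18 with a 95% interval from 0.12 to 0.92 that did not pass after adjustment (limma adjusted p = 0.068). Without Rb null embryo 2 it was 0.68 and passed (adjusted p = 0.044), and without Rb null embryo 1, the highest value, it was 0.33 (adjusted p = 0.17).

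The dim Pdgfra probe sets did not follow the bright one. Probe set 160332_at read 49.2, 142 and 195 in Rb null embryos, against 122, 110.2 and 108 in wild type embryos, and it was lowest in Rb null embryo 1, where the bright probe set was highest. Probe set 161202_r_at read 8.7, 5.7 and 19.6 in Rb null embryos, against 31.0, 42.1 and 10.7 in wild type embryos. Both were below the filter, so only the bright probe set bears on Pdgfra here.

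Pdgfrb, the beta receptor that marks pericytes and stellate cells, lay just under the filter. It read 149, 148 and 134 in Rb null embryos, against 134, 129 and 117 in wild type embryos. The groups overlap by the lowest Rb null and the highest wild type value, and the change without the filter was 0.13 ± 0.12 (limma adjusted p = 0.60). Cdh11, a cadherin of mesenchymal cells, read 123, 132 and 122 in Rb null embryos, against 53.2, 127 and 59.5 in wild type embryos. Wild type embryo 2 lay among the Rb null values, and the change without the filter was 0.48 ± 0.22 (limma adjusted p = 0.23).

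The contractile markers were set against the factors and receptors by averaging log2 values per embryo, over Acta2 and Tagln on one side and Cxcl12, Mdk and Pdgfra on the other, each by its brightest probe set. These are the genes that passed the filter, so neither average covers its whole class. The contractile average was 8.40, 8.68 and 8.84 in Rb null embryos, against 8.56, 8.62 and 8.64 in wild type embryos. The factor and receptor average was 10.80, 10.53 and 10.52 in Rb null embryos, against 9.97, 10.11 and 10.08 in wild type embryos. The contractile values of the genotypes overlap, and the factor and receptor values do not. The Mdk and Cxcl12 probe sets averaged here were each separated already, while that of Pdgfra overlapped, so this is no separate result. No share for comparable averages was computed. Of single tested probe sets 22.9% had all Rb null values above and 17.2% all below. Levels on this array cannot be compared between genes, so only the change of the difference is read.

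The contractile average minus the factor and receptor average was -1.97 ± 0.38 in Rb null embryos, against -1.45 ± 0.04 in wild type embryos (SD), a change of -0.53 on the log2 scale. No test was made of it, because the genes were chosen with results of these data known. Rb null embryo 1 stood at -2.40, away from -1.85 and -1.68 in the other Rb null embryos, through the lowest Acta2 and the highest Pdgfra and Mdk values of the 6 livers. Without that embryo the change was -0.31. It was -0.36 when all 10 genes entered without the filter.

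**Figure D3:**
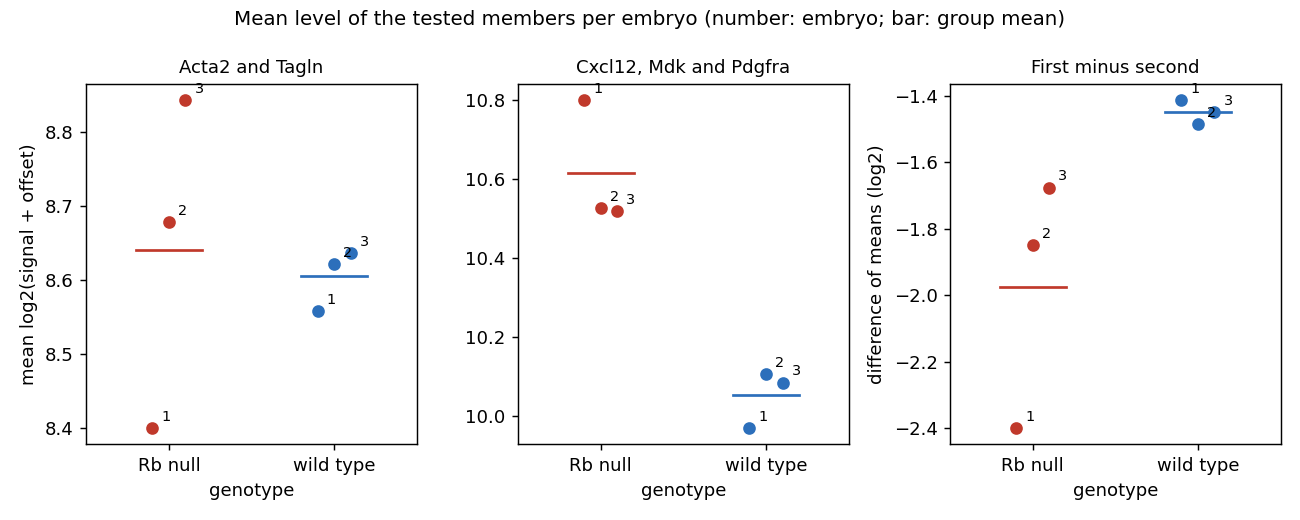
Mean log2(signal + 50.02) per embryo of Acta2 and Tagln (left), of Cxcl12, Mdk and Pdgfra (middle) and the difference (right), with Rb null left of wild type, the embryo number beside each point and bars for group means. The contractile values overlap, and Rb null embryo 1 has the lowest difference, at -2.40.

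The genes whose profile over the 6 embryos was nearest to those of Mdk and Cxcl12 were sought among all tested genes, by the root mean square difference of centred log2 values. Nearest to Cxcl12 were Pros1, which encodes the anticoagulant protein S (0.017), and Yap1, the transcriptional co-activator of the Hippo pathway (0.024). Nearest to Mdk were Myl7, the atrial myosin light chain (0.069), and Mdfic, named for its MyoD family inhibitor domain (0.071). The changes of these genes were 0.40 for Pros1, 0.41 for Yap1, 0.70 for Myl7 and 0.73 for Mdfic. Their closeness to the changes of Cxcl12 and Mdk follows from how they were picked and is no separate result. The Pros1 change was not called after any of the 3 other normalizations, with no filter, or on leaving out Rb null embryos 1 or 2 or wild type embryos 1 or 3.

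Known partners of the secreted factors and receptors moved in both directions. Of 28 listed genes 25 were on the array and 16 were tested. Of these 4 rose, 1 fell and 11 did not pass, with a median of 0.07, where 13.1% of all tested genes rose and 9.5% fell. Nrp1, a co-receptor for several heparin-binding factors, read 1061 ± 58.4 in Rb null livers, against 740.0 ± 30.1 in wild type livers (0.49 ± 0.07, limma adjusted p = 0.0022). Lrp1, an endocytic receptor that binds midkine, rose by 0.28 ± 0.07, and Ctnna1, which links cadherins to actin, by 0.47 ± 0.12. Ncl, which encodes nucleolin, a binding partner of midkine and pleiotrophin, fell by 0.28 on the log2 scale. The Ctnna1 call held without wild type embryo 3 and was lost without any other single embryo and after each of the 3 other normalizations, and the Lrp1 call was lost after median scaling and without Rb null embryos 1 or 3 or wild type embryos 2 or 3. The Ncl call was lost after quantile and cyclic loess normalization. The genes Cxcr4, Met, Spint2 and Sdc1, named after their values were seen, lay below the filter. The chemokine receptor gene Cxcr4 read 93.0 ± 11.1 in Rb null livers, against 58.5 ± 4.89 in wild type livers (0.40 ± 0.12 without the filter, limma adjusted p = 0.095). The Hgf receptor gene Met read 24.1 ± 10.2 in Rb null livers, against 10.2 ± 0.95 in wild type livers (0.29 ± 0.11, limma adjusted p = 0.15). Spint2 read 21.9 ± 2.57 in Rb null livers, against 62.8 ± 42.0 in wild type livers (-0.57 ± 0.27, limma adjusted p = 0.25). Sdc1 changed by -0.17 ± 0.15 (limma adjusted p = 0.58). Without the filter 3 of 25 partners rose and 1 fell, where 5.88% of all probe sets rose and 3.39% fell. The ligand gene Pdgfa read 320 ± 28.3 in Rb null livers, against 301 ± 40.1 in wild type livers (0.08 ± 0.11).

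Other genes of the contractile and actin-binding list did differ between the genotypes. Of 27 listed genes 21 were on the array and 15 were tested, of which 9 rose and 6 did not pass, with a median of 0.37, where 13.1% of all tested genes rose. The largest rises were those of Nes, the intermediate filament nestin (0.55 ± 0.08), Mylk, the kinase of myosin light chain (0.54 ± 0.09), Csrp2, a LIM protein of stellate and smooth muscle cells (0.52 ± 0.07), and Cnn2, a calponin (0.50 ± 0.08). Mylk read 1378 ± 169 in Rb null livers, against 930.1 ± 43.5 in wild type livers (limma adjusted p = 0.0057). Many of these proteins are widely expressed. Tpm2, a muscle tropomyosin, rose as well (0.48 ± 0.11, limma adjusted p = 0.017). Actg2, smooth muscle gamma actin, read 458 ± 24.9 in Rb null livers, against 570 ± 87.7 in wild type livers (-0.28 ± 0.11, limma adjusted p = 0.12), and Myh11, Cnn1 and Smtn stayed below 50.02 in both group means. Tpm2, Actg2, Myh11, Cnn1 and Smtn were named with their values in view. Whether Acta2 and Tagln differ from this list was not tested.

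Stellate and mesenchyme genes outside the 10 were listed as well. Of 30 listed genes 23 were on the array and 17 were tested, of which 11 rose and 6 did not pass, with a median of 0.39, where 13.1% of all tested genes rose. Nes belongs to this list too. Ncam1, an adhesion molecule of fetal mesenchyme and neural cells, read 530 ± 15.1 in Rb null livers, against 281 ± 9.04 in wild type livers (0.81 ± 0.08, limma adjusted p = 4.3e-04). Col3a1, a fibrillar collagen, rose by 0.76 ± 0.07, Fbln2, a matrix glycoprotein, by 0.74 ± 0.06, and Tcf21, a transcription factor of visceral mesenchyme, by 0.57 ± 0.11. Gfap read 168 ± 14.5 in Rb null livers, against 205 ± 21.0 in wild type livers (-0.22 ± 0.11, limma adjusted p = 0.20). Thy1, below the filter, read 46.0 ± 35.0 in Rb null livers, against 80.2 ± 47.0 in wild type livers (-0.44 ± 0.32 without the filter, limma adjusted p = 0.49). Reln, Dcn and Igf1 did not pass. Gfap, Thy1, Reln, Dcn and Igf1 were named with their values in view. Of the TGF-beta pathway, which drives the contractile state in stellate cells, 8 of 17 listed genes were tested, of which 5 rose and 3 did not pass (median 0.46), again beside 13.1% of all tested genes. Tgfbr3 (0.61 ± 0.13), Tgfbi (0.54 ± 0.12), Tgfb3 (0.53 ± 0.09) and Smad4 (0.39 ± 0.09) led these rises. The TGF-beta count was 2 without Rb null embryo 1 and 3 without Rb null embryo 2, without wild type embryo 3 or after median scaling.

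Markers of other cell types moved in the same livers, in which 13.1% of all tested genes rose and 9.5% fell. Of endothelial genes 4 of 9 tested rose, led by Vwf (0.91), Kdr (0.66), Emcn (0.59) and Cdh5 (0.31), and the summed signal of the 10 measured markers was 5756 to 6273 in Rb null livers, against 4540 to 4715 in wild type livers. Of megakaryocyte genes 2 of 3 rose, Gp5 (1.07) and Gp1bb (1.02), with a summed signal of 5 markers of 1760 to 2060 in Rb null livers, against 1095 to 1223 in wild type livers. Of macrophage genes 3 of 8 rose, Lyz2 (0.48), Vcam1 (0.33) and Csf1r (0.30), with sums over 10 markers of 5558 to 6032 in Rb null livers, against 4940 to 5213 in wild type livers. Marco, a scavenger receptor of macrophages below the filter, went the other way, with 104.9, 93.2 and 66.0 in Rb null embryos, against 156, 177 and 162 in wild type embryos (-0.65 ± 0.15 without the filter, limma adjusted p = 0.039). C1qc did not pass (-0.05 ± 0.08). The sums of the endothelial, megakaryocyte and macrophage lists do not overlap between the genotypes. They are weighted to the brightest genes, and no share for comparable sums was computed. Of all tested probe sets 22.9% had all Rb null values above, and the median signal was higher in every Rb null array. Pecam1, below the filter, went the other way (-0.18 ± 0.19 without the filter, limma adjusted p = 0.66). Lyve1 (0.005 ± 0.094) did not pass, nor without the filter did Pf4 (0.05 ± 0.25) or Itgb3 (0.11 ± 0.18). These markers were named with their values in view. Cxcl12 and Mdk are not particular to stellate cells, and the part of these cell types in their rises was not tested.

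Striated muscle, mesothelial, hepatoblast and erythroid genes were measured as well, where 13.1% of all tested genes rose and 9.5% fell. Of striated muscle genes 3 of 9 tested rose, Myl7 (0.70), Actc1 (0.64) and Tnnt1 (0.31). Sums over 17 striated muscle markers were 4550 to 5032 in Rb null livers, against 3682 to 3858 in wild type livers. The Actc1 and Tnnt1 probe sets carry suffix letters. Without probe sets of such suffixes 1 of 7 tested striated muscle genes rose, beside 14.0% of all tested probe sets. The Tnnt1 call was also lost after quantile, median and cyclic loess normalization. The muscle regulator Myog read 314, 122 and 306 in Rb null embryos, against 219, 92.5 and 108 in wild type embryos (0.62 ± 0.33, limma adjusted p = 0.22). Myod1 averaged 433 ± 71.2 in Rb null livers, against 379 ± 35.1 in wild type livers (0.17 ± 0.12, limma adjusted p = 0.36), and Tnni1 averaged 826 ± 67.4 in Rb null livers, against 731 ± 47.7 in wild type livers (0.16 ± 0.08, limma adjusted p = 0.19). These 3 muscle genes, named like Marco and C1qc with their values in view, overlap between the genotypes and were above the filter. Myh6 averaged 8.63 in Rb null livers, against 6.83 in wild type livers, and Chrna1 averaged 13.8 in Rb null livers, against 10.7 in wild type livers. Of mesothelial genes Wt1 rose (0.52) and Upk3b did not pass (0.28), with sums over 6 markers of 862 to 975 in Rb null livers, against 650 to 688 in wild type livers, while Msln read 10.4 in Rb null livers, against 8.60 in wild type livers. Of hepatoblast genes Hnf4a rose (0.49), Apoa1 (-0.31) and Alb (-0.20) fell and 8 did not pass. Sums over 11 hepatoblast markers were 39748 to 42288 in Rb null livers, against 42103 to 45657 in wild type livers. The falls depended on the scaling, with Alb turning to 0.023 after quantile normalization. After cyclic loess normalization Apoa1 was not called (-0.11, limma adjusted p = 0.12), and 3 of 11 hepatoblast genes rose and none fell. Of erythroid genes 5 of 9 fell, led by Klf1 (-0.60), Epb42 (-0.55), Alas2 (-0.49) and Slc4a1 (-0.49), with sums over 9 markers of 47926 to 52044 in Rb null livers, against 60200 to 65784 in wild type livers. No marker of these lists was at 0 on any array. The erythroid sum, also weighted to its brightest genes, was lower in every Rb null liver than in any wild type liver. The part of erythroid cells in the rises of Mdk and Cxcl12 was not tested.

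**Figure D4:**
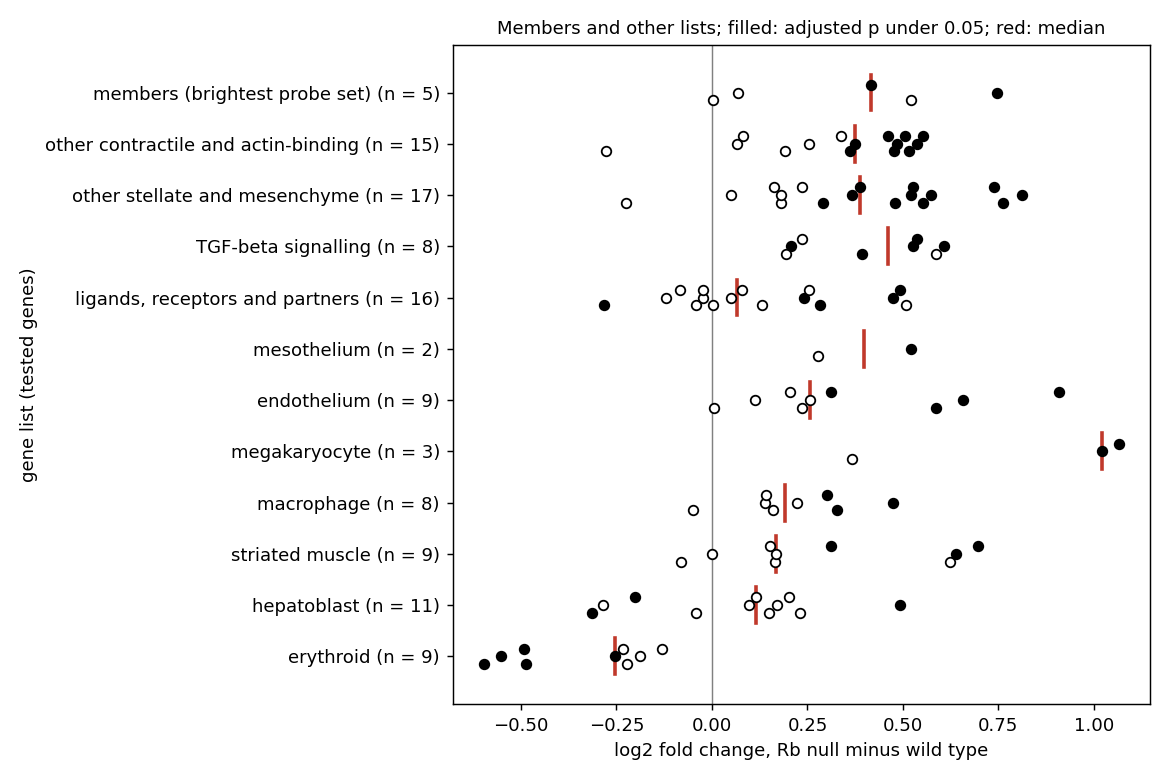
Changes on the log2 scale (Rb null over wild type) of the tested genes among the 10 and in 11 other lists, each gene by its brightest probe set. Filled points had an adjusted p under 0.05 and red lines are list medians, from 1.02 for megakaryocyte genes to -0.25 for erythroid genes.

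The changes of Mdk and of the brightest Cxcl12 probe set kept their direction and their call under each of 17 alternatives. They ran from 0.61 to 0.82 for Mdk (adjusted p from 0.0014 to 0.010) and from 0.28 to 0.46 for Cxcl12 (adjusted p from 0.0041 to 0.024). The Acta2 and Tagln probe sets passed under none of 16 alternatives each.

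**Figure D5:**
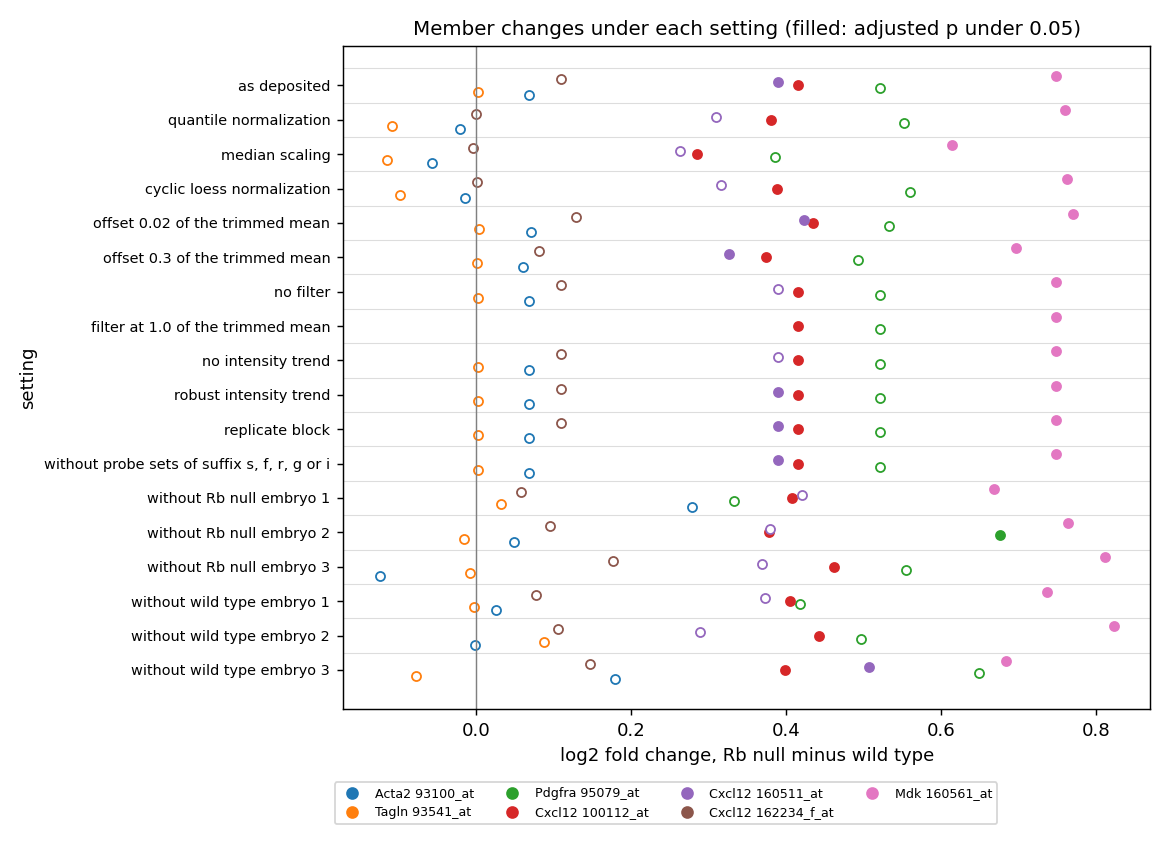
Change on the log2 scale (Rb null over wild type) of the 7 tested probe sets under each setting, filled where the adjusted p was under 0.05. Mdk stays between 0.61 and 0.82, while the second Cxcl12 probe set is called in 6 of 16 alternatives.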

How the data were processed

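Total RNA (6 ug per liver) of 6 fetal livers was labelled with biotin and read on 1 array each. The signal intensity values were computed by the authors with MAS5, per the submitters' processing notes, whose version and scaling target are not given in the sources used here. The deposited values are linear, and the equal 2% trimmed means (500.2) show a common scaling.

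Probe sets were named by the platform annotation, with symbols updated through a RefSeq gene table. Of the probe sets 10833 had 1 symbol, 396 several and 1193 none, and 66 were array controls, which were left out. Logs to base 2 were taken after adding 50.02, which is 0.1 of the trimmed mean. The 6793 probe sets averaging above 150.1, or 0.3 of it, were tested with limma 3.58.1 in R 4.3.3 (two-sided, intensity trend). A gene was represented by its brightest probe set. The procedure was tested on simulated data. No columns were left out. Precision is limited by the 6 arrays.

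The 10 genes, the other lists and the tests were chosen with earlier results of these data known. Named were all 10 genes, up to 4 called genes per other list with the largest change, and the 2 genes nearest to each called one of the 10. Alternatives were quantile, median and cyclic loess normalization, offsets of 10.005 and 150.1, no filter and a filter of 500.2, no or a robust trend, the replicate block, probe sets without suffix letters, and leaving out each embryo.

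Replicate numbers are shared between the genotypes. The deviations of same-numbered embryos had correlations of -0.06, 0.05 and 0.27 across probe sets, against -0.25 to 0.22 for embryos of different numbers. The 0.27 of the embryos numbered 3 was the highest of all. With 3 embryos per genotype these correlations cannot decide whether the embryos are pairs, and they were not taken as pairs.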

Additional observations from a re-analysis of the deposited data

How the results depend on the processing

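The count of 3 called probe sets among the 10 genes was 2 or 3 under each alternative, on leaving out each embryo as well, and none was called lower. The probe sets behind the count were not always the same. With no filter Ptn passed (limma adjusted p = 0.023) and Cxcl12 probe set 160511_at did not (limma adjusted p = 0.080). Probe set 160511_at was called in 6 of 16 alternatives. The change of the contractile against the factor and receptor average ran from -0.68 to -0.31 on leaving out each embryo. Under every alternative run it stayed within 1 pooled SD between embryos (0.27) of the main value of -0.53. That SD comes mostly from the Rb null embryos (SD 0.38, against 0.04 in wild type embryos), so it is a wide yardstick. The change had no value with the filter of 500.2, which no contractile gene passed.

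Values near 0 changed sign. Acta2 read -0.021 after quantile normalization, -0.057 after median scaling and -0.015 after cyclic loess, and -0.12 to 0.28 on leaving out each embryo. Tagln read -0.11, -0.12 and -0.10 under the same normalizations, and -0.078 to 0.088 on leaving out each embryo. Cxcl12 probe set 162234_f_at read -0.00052 after quantile normalization and -0.0044 after median scaling. Alb was not near 0 as deposited (-0.20, limma adjusted p = 0.034), yet it read 0.023 after quantile and 0.045 after cyclic loess normalization. The cause was not tested.

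Median scaling moved the median change of all tested probe sets to -0.10, against 0.02 as deposited, and gave 471 higher and 1369 lower calls, against 867 and 617, so that 25.6% of calls were upward, against 58.4%. Relative to that median the Mdk change of 0.61 and the Cxcl12 change of 0.28 stayed higher in Rb null livers. Calls fell to 530 higher and 352 lower on leaving out Rb null embryo 1, to 517 and 372 on leaving out Rb null embryo 2 and to 593 and 319 on leaving out wild type embryo 3. The filter of 500.2 gave 513 and 650, among fewer probe sets tested. The list of partners had 1 to 3 rises on leaving out each embryo and 1 after median scaling. Of the genes outside the 10, Tnnt1, Csf1r, Cdh5, Apoa1, Alb, Tgfbi, Tgfbr3, Smad4 and Pros1 each lost their call on leaving out at least 1 embryo, and Vcam1 after median scaling and Emcn after cyclic loess.

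With the replicate block, which assumes pairs that the correlations cannot decide, 813 probe sets were higher and 606 lower, and the count among the 10 genes was 3. With pairing by number, 2 of 6 embryos correlated best with their own number. Detection calls were not used here, so whether probe sets below the filter were above background was not tested.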

Other observations

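Some listed genes below the signal filter separated the genotypes in the fit of all probe sets, and they were picked after their values were seen. Twist1, a transcription factor of mesenchyme, read 248, 233 and 202 in Rb null embryos, against 66.0, 83.6 and 23.9 in wild type embryos (1.40 ± 0.23, limma adjusted p = 0.012). Tgfbr1, a type I receptor of TGF-beta, read 75.3, 51.8 and 66.3 in Rb null embryos, against 10.6, 15.7 and 6.7 in wild type embryos (0.91 ± 0.11, limma adjusted p = 0.0044). Ltbp3, a binding protein of latent TGF-beta, went the other way, with 89.6, 77.8 and 84.2 in Rb null embryos, against 152, 172 and 154 in wild type embryos (-0.64 ± 0.12, limma adjusted p = 0.020). In that fit 5.88% of all probe sets rose and 3.39% fell.

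The sex of the embryos is not given in the labels. Xist, the RNA that silences an X chromosome, read 607, 643 and 560 in Rb null embryos, against 401, 473 and 384 in wild type embryos (0.48 ± 0.10, limma adjusted p = 0.011). The Y-linked gene Eif2s3y read 211, 186 and 195 in Rb null embryos, against 305, 240 and 235 in wild type embryos (-0.32 ± 0.12, limma adjusted p = 0.091). Its probe set carries the suffix f, which marks probes that can bind a family of transcripts. Without probe sets of suffix letters Xist was the only sex-linked gene tested. Uty, also Y-linked and below the filter, read 55.0, 46.4 and 38.3 in Rb null embryos, against 86.4, 74.2 and 65.3 in wild type embryos (-0.38 ± 0.13 without the filter, limma adjusted p = 0.12). All Rb null values lay above the wild type ones for Xist and below them for Eif2s3y and Uty, while Kdm5d overlapped. Of the 2 sex-linked genes tested, 1 rose and none fell as deposited, and 1 rose and 1 fell after quantile, median and cyclic loess normalization. The part of embryo sex in the results was not tested.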
